A study of Mus musculus with 12 samples.

Results

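The genes described here are those whose RNA was below 1.4 times its untreated level after 2 h of ERK activation and had at least doubled after 4 h. They were chosen from the measured counts. Counts were scaled so that each library sums to 1000000 (CPM) and averaged over 3 clones. A gene was a member when its mean was at least 3 CPM at 4 h, its 4 h over untreated ratio was at least 2 and its 2 h over untreated ratio was below 1.4, each ratio taken after adding 0.5 CPM. Symbols of the form Gm with a number, those ending in Rik or starting in Hist, and 7 symbols named in the rule (Cyp26a1, Aldh1a3, Gata3, Kdr, Eomes, T and Krt18) were left out. This gave 140 members of 25897 gene symbols. The rule set aside 17 symbols that met the limits.

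The cells were mouse embryonic stem cells of the E14tg2a line (129SV background) with a cRAF-ERT2 construct, a kinase fused to the ligand-binding domain of the oestrogen receptor that 4-hydroxytamoxifen (4OHT) releases to activate MEK and ERK. Clones a, b and c were each sequenced untreated and after 1, 2 and 4 h in 250 nM 4OHT, 12 libraries in 4 groups of 3. All groups, the untreated cells included, had been kept in serum with LIF and 2 µM Chir99021 and then for 24 h in serum and LIF without it but with 250 nM PD173074, which blocks FGF receptors, and all received 5 mM ethynyl uridine for 15 min before harvest. The titles and design give 4 times, while the treatment protocol names only 0 h and 2 h. The samples include no vehicle control, so the ligand, its carrier and time in culture cannot be told apart from kinase activation. A clone contributed 1 library per time, so p-values of time contrasts without a clone term measure the spread between these 3 clonal lines. Fits with clone as a block, and the test of clone itself, use the spread left after time and clone are taken out.

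When ERK is switched on, transcription factors that are already present in the cell, such as the ternary complex factors of the ETS family, induce immediate-early genes within minutes. The products of those genes, among them the Fos and Jun proteins that pair as AP-1 and the Egr factors, then act on later genes, whose induction can need new protein synthesis. Later genes of the pathway are known in many cell types for roles in adhesion, cell shape and migration, and in embryonic stem cells ERK signalling drives exit from the naive state towards lineage commitment.

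Library totals were 24213641 to 31435301 counts, which put 1 count at 0.0318 to 0.0413 CPM. Across the 14185 genes that passed a filter on low counts, and all 140 members were among them, the median ratio to untreated cells on CPM lay below 1, with a log2 of −0.10 at 1 h, −0.13 at 2 h and −0.11 at 4 h. Under TMM scaling (trimmed mean of M-values, a scaling by the bulk of genes) the same medians were −0.01, −0.02 and −0.01. A small set of transcripts differed widely between libraries, and the share of counts taken by Lars2 and Kpna1 together ranged from 0.162% to 4.62%. Embryonic stem cell markers summed to 3690 to 3870 CPM at 4 h and to 4010 to 4210 CPM in untreated cells. Summed markers of feeder fibroblasts were 14.5 to 27.5 CPM at 4 h and 7.22 to 8.21 CPM in untreated cells, and Thy1, itself a member, held most of that sum at 4 h, with Col1a2, Col3a1, Dcn, Lum and Postn each averaging at most 0.0592 CPM in both groups. Of the same list Pdgfrb was lower at 4 h, with a mean of 1.72 CPM against 3.54 CPM untreated, and Col1a1 averaged 0.792 CPM at 4 h and 0.347 CPM untreated. Summed neural markers were 69.1 to 105 CPM at 4 h and 38.1 to 43.9 CPM in untreated cells, with the members Nes and Pax6 in that list and Neurog2 at 0 in all libraries. Sox1, also in it, averaged 1.00 CPM at 4 h and 3.85 CPM untreated, and Olig2 averaged 0.0499 CPM at 4 h and 0.116 CPM untreated. The part of other cell types in the members' values was not tested. In bulk RNA, fewer cells of a type and less RNA per cell cannot be told apart.

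The rise at 4 h, in means over the 3 clones, was moderate in size. Ratios of 4 h over untreated means ran from 2.00 to 6.74 with a median of 2.49, and 71 members lay below 2.5, 35 reached 3 and 10 reached 4. The 4 h over untreated contrast chose the members, so these ratios are descriptions. At 2 h the ratio was below 1 in 25 members, between 1 and 1.2 in 50 and between 1.2 and 1.4 in 65. On TMM scaling the counts shift, with 15 members below 1 and 29 at or above 1.4 at 2 h. The members' median log2 ratio at 2 h was 0.24 on CPM and 0.34 on TMM scaling. Over all genes tested it was −0.13 and −0.02, so the members' median at 2 h was above that of all genes. The rule used the 2 h ratio and the untreated means, so this is a description. The quasi-likelihood test of edgeR, with adjustment over all genes, called 7 members higher at 2 h (5.00%, beside 9.56% of all genes tested), and 33 with clone as a block (23.6%, beside 20.6%). The rule used this contrast as well, and nothing is read from these counts. A second set, called the early set here, met the same limits on level and 4 h ratio but had already reached 1.4 at 2 h. It held 362 genes, with a median 4 h ratio of 3.71 and a highest of 93.6.

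**Figure D1:**
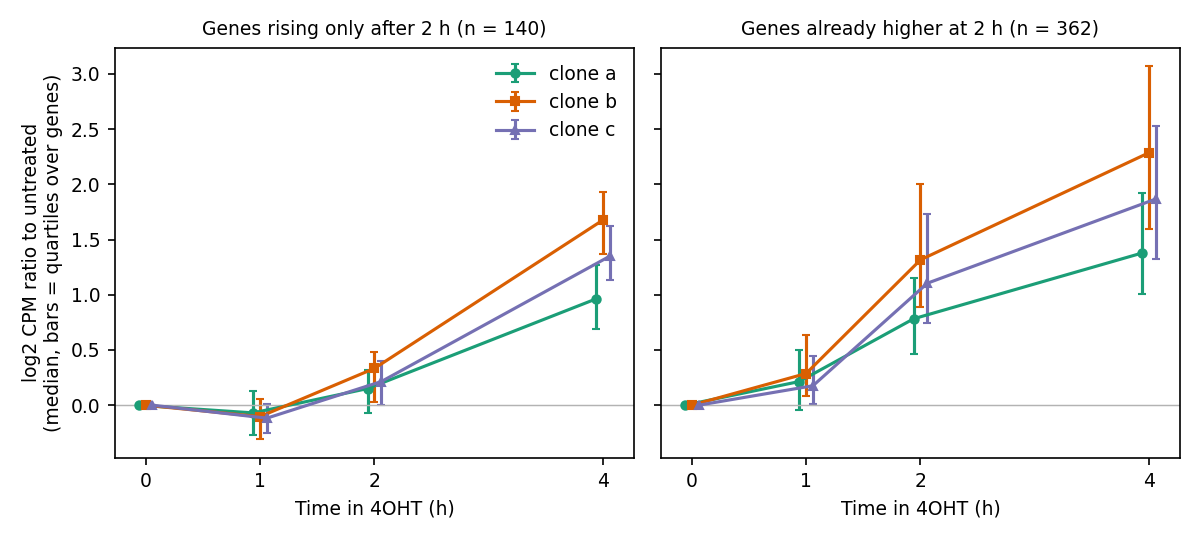
Median log2 ratio of CPM to the same clone's untreated library (each value plus 0.5) against hours in 4OHT, with bars from the lower to the upper quartile over genes and 1 line per clone, for the 140 members (left) and the 362 genes of the early set (right). The members' medians stay close to 0 at 1 h and reach ratios of 1.95, 3.20 and 2.55 at 4 h (clones a, b, c), while the early set's lie above 0 from 1 h on.

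The member with the largest ratio was Tril, which encodes a cell-surface accessory protein of Toll-like receptor signalling, at chr6:53815468-53820830 (GRCm38, GENCODE M21; all gene positions are from this annotation). The libraries of clones a, b and c had 0.762, 0.95 and 1.14 CPM of Tril untreated, 1.61, 0.556 and 0.759 CPM at 1 h, 1.2, 1.34 and 1.72 CPM at 2 h and 5.94, 10.2 and 11.7 CPM at 4 h. Every 4 h library stood above every earlier one, and the ratio was 6.74. Tmcc3, a coiled-coil membrane protein gene, followed with a ratio of 5.78. Tmcc3 stood at 3.05, 1.90 and 2.83 CPM (clones a, b, c) in untreated cells, at 2.41, 2.05 and 2.39 CPM after 1 h, at 3.46, 3.99 and 2.73 CPM after 2 h and at 9.22, 29.6 and 13.3 CPM after 4 h. Until 2 h the clones lay within a few CPM of each other, and at 4 h clone b stood far above the others.

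Bcl2l11 encodes BIM, a BH3-only protein that promotes apoptosis and that ERK is known to mark for degradation by phosphorylation of the protein. The gene lies at chr2:128126038-128162547. Levels of Bcl2l11 were 22.4, 17.5 and 17.7 CPM untreated, 21.1, 15.7 and 14.8 CPM at 1 h, 32.1, 19.1 and 21.6 CPM at 2 h and 75.8, 143 and 114 CPM at 4 h in clones a, b and c. Its RNA averaged 111 ± 33.8 CPM at 4 h and 19.2 ± 2.75 CPM in untreated cells (SD, n = 3 each), a ratio of 5.66, with no overlap between the groups. The clone with the highest level at 2 h, clone a, had the lowest at 4 h. The only other member in the cell death group, Htatip2, a gene reported to promote apoptosis in human cells, had a ratio of 2.31.

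**Figure D2:**
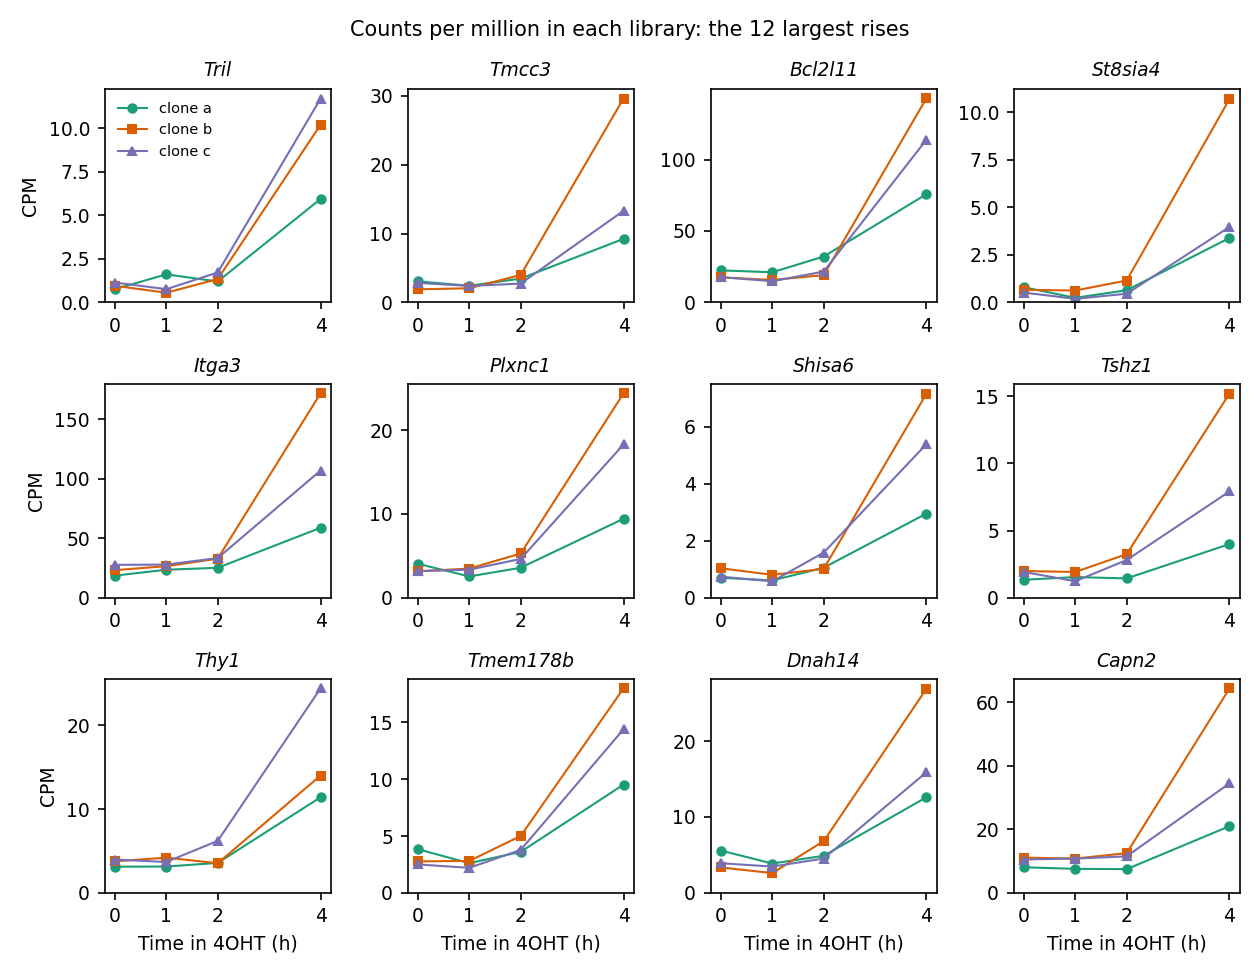
CPM in each of the 12 libraries (vertical axis from 0, its own scale in each panel) against hours in 4OHT, with 1 line per clone, for the 12 members with the largest 4 h over untreated ratio. In all 12 panels the 4 h points stand above all untreated and 2 h points, and clone b is highest at 4 h in 10 of them, Tril and Thy1 being the exceptions.

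Stretches of 250 bases upstream of the start are given for 5 members, to show the letters that a search for AP-1, ETS, EGR and cyclic AMP response element motifs found in each. They are written 5′ to 3′ on the gene's strand, from the RefSeq start in GRCm38.p6, and capitals mark the matches. The first holds EGR letters (GTGGGCG) and, nearer to the start, an ETS core (CCGGAAG or its complement), the next 3 hold AP-1 sites (TGANTCA), and the Pax6 window holds a cyclic AMP response element (TGACGTCA). E-box and TATA letters were searched too and are not marked, and of these 5 windows the one of Tnfrsf8 holds an E-box.
Bcl2l11, chr2:128125788-128126037, plus strand: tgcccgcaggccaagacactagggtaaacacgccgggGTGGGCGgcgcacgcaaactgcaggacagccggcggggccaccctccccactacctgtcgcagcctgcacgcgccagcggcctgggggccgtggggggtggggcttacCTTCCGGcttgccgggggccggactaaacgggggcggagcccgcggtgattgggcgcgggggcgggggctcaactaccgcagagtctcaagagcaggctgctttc
Capn2, chr1:182517611-182517860, minus strand: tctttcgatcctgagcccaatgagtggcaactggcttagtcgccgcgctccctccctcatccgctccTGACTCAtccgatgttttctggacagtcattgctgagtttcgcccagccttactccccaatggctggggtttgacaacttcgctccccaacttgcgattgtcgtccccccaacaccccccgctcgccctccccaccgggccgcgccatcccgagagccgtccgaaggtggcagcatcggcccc
Tpbg, chr9:85842130-85842379, plus strand: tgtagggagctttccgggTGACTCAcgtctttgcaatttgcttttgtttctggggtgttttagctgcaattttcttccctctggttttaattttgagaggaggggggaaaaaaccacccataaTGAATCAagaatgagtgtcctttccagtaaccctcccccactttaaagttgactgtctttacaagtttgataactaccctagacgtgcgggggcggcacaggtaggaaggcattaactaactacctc
Tnfrsf8, chr4:145315165-145315414, minus strand: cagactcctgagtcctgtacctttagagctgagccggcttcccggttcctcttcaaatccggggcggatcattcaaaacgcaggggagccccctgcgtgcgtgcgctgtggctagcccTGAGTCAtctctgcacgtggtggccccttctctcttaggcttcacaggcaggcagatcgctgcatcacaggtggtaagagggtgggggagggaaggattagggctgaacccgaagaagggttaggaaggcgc
Pax6, chr2:105668646-105668895, plus strand: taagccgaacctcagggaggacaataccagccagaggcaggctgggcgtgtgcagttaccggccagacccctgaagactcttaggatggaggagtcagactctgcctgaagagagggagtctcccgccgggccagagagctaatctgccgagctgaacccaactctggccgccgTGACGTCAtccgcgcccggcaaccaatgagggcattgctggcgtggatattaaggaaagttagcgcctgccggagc

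Promoter windows were matched for 105 of the 140 members (75.0%), 257 of the 362 early genes (71.0%) and 10861 of the 14185 genes tested (76.6%). With fewer than 80% matched, a comparison between the sets is void, and the shares are given as a description of the matched windows. Motifs were searched on both strands in windows of equal length, and the CRE and AP-1 letters did not overlap in any member. An AP-1 match was found in 12 member windows (11.4%), 7.78% of early windows and 4.96% of all windows. An ETS match was found in 11 member windows (10.5%), 8.17% of early windows and 17.1% of all windows. The CRE match in Pax6 was the only one among members (0.952%), with 2.72% of early and 3.09% of all windows holding one. EGR letters (GTGGGCG) were in 11.4% of member, 14.8% of early and 14.4% of all windows, and E-box letters (CACGTG) were in 4.76%, 10.1% and 10.1% of them. TATA letters (TATAAA) were in 11.4% of member, 12.8% of early and 7.03% of all windows.

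Genes of cell adhesion and matrix numbered 14 among the members, with a median ratio of 2.88 and a range from 2.10 to 4.80. All groupings by role were made after the members were known and carry no test. Itga3 encodes the alpha-3 subunit of a laminin-binding integrin. In clones a, b and c, Itga3 had 18.5, 23.1 and 27.6 CPM untreated, 23.5, 26.5 and 27.8 CPM at 1 h, 25.1, 32.8 and 33.3 CPM at 2 h and 58.8, 172 and 107 CPM at 4 h. At 4 h clone b was highest and clone a lowest, and clone a still stood above every library of the other times. Itga1, the collagen-binding alpha-1 subunit, was low throughout. Its 4 h libraries had 6.34, 5.03 and 5.27 CPM in clones a, b and c, against 1.62, 1.57 and 1.21 CPM untreated.

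Cdh2, which encodes N-cadherin, had 31.9, 44.1 and 40.9 CPM at 4 h in clones a, b and c, against 18.1, 9.83 and 15.5 CPM untreated. The untreated and 4 h libraries did not overlap. The cadherin gene Cdh17 also was a member (2.78), as was Nectin1, an adherens junction receptor (2.38). Gja1 encodes connexin 43, a gap junction channel subunit. The libraries of clones a, b and c had 127, 104 and 125 CPM of Gja1 untreated, 127, 127 and 135 CPM at 1 h, 151, 139 and 141 CPM at 2 h and 235, 277 and 259 CPM at 4 h. Its 4 h libraries lay close together and far from the rest. Thy1, a GPI-anchored surface glycoprotein of neurons, T cells and fibroblasts, had 11.4, 14.0 and 24.4 CPM at 4 h in clones a, b and c, against 3.12, 3.76 and 3.97 CPM untreated, and here clone c was highest. Secreted or matrix members were Adamts1 (3.09) and Adamts7 (3.19), both matrix metalloproteases, Vwa1 (3.73), Col6a4 (2.64) and the laminin chain gene Lama3 (2.19). The other members of the group were Perp, a desmosome component (2.98), and Tpbg, the trophoblast glycoprotein (2.10).

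There were 3 semaphorins among the members, secreted or membrane-bound guidance ligands, and 1 plexin, a semaphorin receptor. Plxnc1 is the receptor of Sema7a, and both were members. Plxnc1 stood at 4.04, 3.14 and 3.17 CPM (clones a, b, c) in untreated cells, at 2.53, 3.47 and 3.34 CPM after 1 h, at 3.57, 5.27 and 4.62 CPM after 2 h and at 9.42, 24.4 and 18.3 CPM after 4 h. Up to 2 h its libraries lay between 2.53 and 5.27 CPM. Sema7a was at the edge of the rule with a ratio of 2.001, and its levels were 6.62, 12.7 and 12.5 CPM at 4 h and 4.08, 5.49 and 5.56 CPM untreated in clones a, b and c. Sema6d had a ratio of 3.40 and Sema3e one of 2.73. In all 4 genes clone b had the largest ratio and clone a the smallest.

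Cytoskeletal and membrane-trafficking members formed the largest role group with 21 genes, a median ratio of 2.43 and a range from 2.03 to 3.90. Capn2 encodes the catalytic subunit of calpain 2, a calcium-dependent protease that cuts adhesion proteins. Levels of Capn2 were 8.05, 11.1 and 10.5 CPM untreated, 7.56, 10.8 and 10.8 CPM at 1 h, 7.47, 12.5 and 11.5 CPM at 2 h and 21, 64.4 and 34.5 CPM at 4 h in clones a, b and c. Each clone was close to its untreated level at 2 h and above it at 4 h. Anxa7, an annexin, sat at the 2 h limit with a ratio of 1.395. In clones a, b and c, Anxa7 had 136, 172 and 152 CPM untreated, 131, 167 and 142 CPM at 1 h, 159, 265 and 219 CPM at 2 h and 250, 509 and 374 CPM at 4 h. All 3 clones were already above their untreated level at 2 h, clone a by the least. Emp1, a membrane protein gene of the PMP22 family, had 110, 301 and 227 CPM at 4 h in clones a, b and c, against 84.2, 90.3 and 100 CPM untreated, and no 4 h library overlapped with an untreated one. Nav1, which encodes a neuron navigator that binds microtubule ends, had a ratio of 2.21. Flnc, the muscle-type filamin, had a ratio of 2.74, Specc1 3.12, the membrane-curving Bin1 3.37, Abi3 3.39 and the intermediate filament gene Nes 2.29. The exons of Abi3 overlap those of other genes, Gngt2 of the early set among them, so its counts are uncertain. Amotl1, an angiomotin family member that binds YAP, was among those lower at 2 h on CPM, with 0.887 at 2 h and 2.46 at 4 h.

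**Figure D3:**
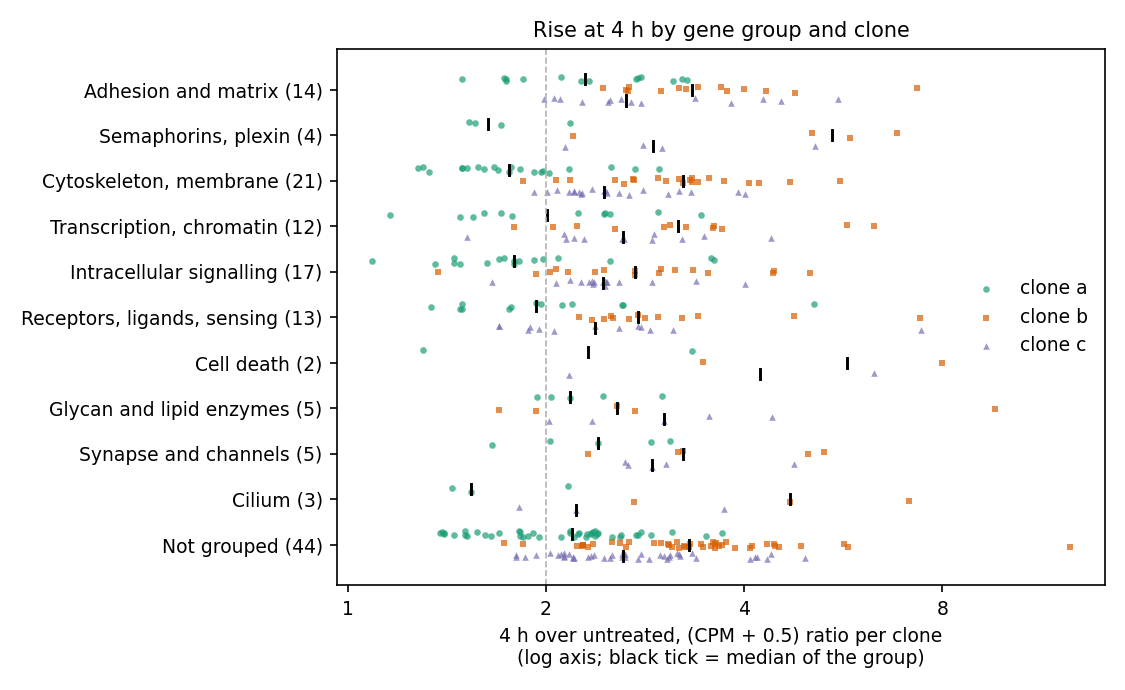
Ratio of 4 h over untreated (CPM plus 0.5, log axis) in clones a, b and c for each of the 140 members, by role group with its number of genes in brackets, where the dashed line marks a ratio of 2 and a black tick the median of the group in that clone. In each of the 11 rows the median lies lowest in clone a, and all points are above 1.

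Transcription and chromatin genes numbered 12, with ratios from 2.01 to 4.25. Jmjd1c, a jumonji domain protein of the histone demethylase family, drew the most counts of all members, without regard to length. The libraries of clones a, b and c had 345, 347 and 310 CPM of Jmjd1c untreated, 294, 369 and 315 CPM at 1 h, 384, 470 and 415 CPM at 2 h and 534, 887 and 669 CPM at 4 h. Its ratio was 2.08. Divided by exonic length, the highest member level at 4 h was that of Anxa7 with 63.0 CPM per kb, followed by Rbmxl2 with 45.5 and Jmjd1c with 39.1 CPM per kb. Zfp423, a zinc finger gene that takes part in BMP and retinoid signalling, had 109, 143 and 140 CPM at 4 h in clones a, b and c, against 36.7, 39.3 and 47.5 CPM untreated.

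Grhl2 and Ovol2, transcription factors known for maintaining epithelial identity, were both members. Grhl2 stood at 29.3, 34.0 and 20.2 CPM (clones a, b, c) in untreated cells, at 31.8, 31.1 and 17.4 CPM after 1 h, at 44.4, 31.6 and 21 CPM after 2 h and at 102, 112 and 90.8 CPM after 4 h. Its 4 h libraries lay close together, at 102 ± 10.8 CPM, with 27.8 ± 6.99 CPM untreated (SD, n = 3 each). Ovol2 had 7.54, 10 and 7.64 CPM at 4 h in clones a, b and c, against 4.01, 4.21 and 3.31 CPM untreated. Runx1, a haematopoietic transcription factor, had a ratio of 3.47, the homeobox gene Meis1 2.48, Tshz1 4.25 and Nfatc2 2.05. Rhox5, an X-linked homeobox gene, was lower in clone b than in the other clones at all 4 times.

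Intracellular signalling genes numbered 17, with a median ratio of 2.23 and a range from 2.01 to 3.86. Dok2, an adaptor that restrains Ras signalling in blood cells, had the largest of them. Levels of Dok2 were 4.54, 4.83 and 3.50 CPM untreated, 4.83, 4.83 and 3.87 CPM at 1 h, 5.56, 7.69 and 4.73 CPM at 2 h and 12.1, 26.3 and 15.6 CPM at 4 h in clones a, b and c. The kinase genes were Tec (3.29), Fyn (2.10), Lrrk2 (2.02), Map3k8 (2.35), a kinase upstream of MEK, and Map3k14 (2.01), the kinase of non-canonical NF-kB signalling. Pik3cd, a catalytic subunit of phosphoinositide 3-kinase, was 1 of 9 members with the largest ratio in clone a. Its clones' ratios were 3.56, 2.38 and 2.35 in a, b and c. Ppp2r5a, a regulatory subunit of protein phosphatase 2A, had 130, 146 and 164 CPM at 4 h in clones a, b and c, against 72.2, 70.3 and 66.5 CPM untreated. Guanine nucleotide exchange or Ras effector genes included Rapgef3, Rapgef5, Rin1, Rin3, Rassf3 and Psd3, with ratios of 2.23, 2.10, 2.38, 2.34, 2.12 and 2.38 in that order. Shb, an SH2 domain adaptor, had 40.0, 98.9 and 82.5 CPM at 4 h in clones a, b and c, against 27.5, 22.0 and 31.7 CPM untreated.

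Receptors, ligands and sensing proteins numbered 13, with a median of 2.30. Ddx58 encodes RIG-I, a sensor of viral RNA. In clones a, b and c, Ddx58 had 54.1, 60.0 and 49.6 CPM untreated, 58.3, 56.8 and 53.1 CPM at 1 h, 66.4, 67.8 and 64.3 CPM at 2 h and 115, 136 and 139 CPM at 4 h. The interleukin-1 receptor family genes Il1r1 (2.30) and Il1rl2 (2.5) are neighbours, and Il1r1 was the member nearest the level limit with 3.038 CPM. The Notch ligand gene Jag2 had a ratio of 2.20, the bradykinin receptor gene Bdkrb2 2.05, the chemokine gene Cxcl16 2.17 and the immune checkpoint molecule Cd276 2.27. Smaller groups were 5 genes of glycan and lipid enzymes (2.04 to 5.62), 5 of synapse and channels (2.34 to 4.29) and 3 of cilia (2.10 to 3.98). Mks1 and Bbs2, ciliary genes mutated in the human Meckel and Bardet-Biedl syndromes, had ratios of 2.63 and 2.10, and Mks1 reached 30.9, 88.3 and 38.5 CPM at 4 h in clones a, b and c, against 19.8, 18.4 and 20.9 CPM untreated. St8sia4, a polysialyltransferase that extends polysialic acid on NCAM, led the enzymes. The libraries of clones a, b and c had 0.795, 0.661 and 0.515 CPM of St8sia4 untreated, 0.241, 0.625 and 0.19 CPM at 1 h, 0.639, 1.15 and 0.455 CPM at 2 h and 3.39, 10.7 and 3.97 CPM at 4 h. It was below 1.2 CPM in all earlier libraries. Shisa6, an auxiliary protein of AMPA receptors, had 2.95, 7.16 and 5.39 CPM at 4 h in clones a, b and c, against 0.696, 1.03 and 0.736 CPM untreated. Of the same group were Syp, a synaptic vesicle protein gene (3.59), the potassium channel gene Kcnf1 (2.34) and Grin2a, an NMDA receptor subunit gene (2.41), and of the enzymes St8sia6, a sialyltransferase gene (2.32), and Smpd3, a sphingomyelinase gene (2.62). The axonemal dynein gene Dnah14 (3.98) shares exonic bases with other annotated genes, Lbr among them, so its counts are uncertain, as are those of the 40 members (28.8%) with such an overlap in all.

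A further 44 members were in no role group. Ermp1, an endoplasmic reticulum metallopeptidase, had a ratio of 2.75, Trim44 2.19 and the paternally expressed, retrotransposon-derived Peg10 2.82. Ccdc141 had a ratio of 2.19. Tmem178b had 9.53, 18.0 and 14.4 CPM at 4 h in clones a, b and c, against 3.84, 2.77 and 2.5 CPM untreated. The remaining ones included the carbonic anhydrase gene Car2, the splicing factor gene Rbm20, the transglutaminase gene Tgm3, the ectonucleotidase gene Enpp3 and the orphan receptors Gprc5c and Adgra2.

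On CPM, 25 members (17.9%) were lower at 2 h than in untreated cells, against 66.5% of all genes tested. On TMM scaling 15 members were (10.7%), against 52.3% of all genes. The rule used the 2 h ratio, so nothing is read from these counts. Trib2, a pseudokinase of the Tribbles family, had the lowest 2 h ratio, 0.441. Trib2 stood at 6.76, 5.29 and 4.05 CPM (clones a, b, c) in untreated cells, at 4.22, 2.36 and 2.35 CPM after 1 h, at 3.94, 0.818 and 1.51 CPM after 2 h and at 10, 13.7 and 12.7 CPM after 4 h. In each clone the 1 h and 2 h libraries were below the untreated one and the 4 h library was the highest of the 4. Slco5a1, an organic anion transporter family gene, had 7.99, 7.60 and 7.43 CPM untreated, 5.07, 5.82 and 5.18 CPM at 2 h and 12.3, 25.2 and 19.3 CPM at 4 h in clones a, b and c. The other members with the lowest 2 h ratios were Slc25a48 (0.746), Slfn5 (0.748), Tnfrsf8, which encodes CD30 (0.793), Fam20a (0.816), Fam43a (0.859) and Rin1 (0.86). On TMM scaling, 4 members were lower in all 3 clones at 2 h (2.86%), against 34.0% of all genes tested.

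In a few members the clones moved apart at 2 h. Pax6, a transcription factor of eye and neural development, was higher in clone a and lower in clones b and c. Levels of Pax6 were 6.86, 4.87 and 4.20 CPM untreated, 7.48, 3.16 and 3.53 CPM at 1 h, 9.65, 1.93 and 2.21 CPM at 2 h and 17.9, 9.13 and 14.6 CPM at 4 h in clones a, b and c. All 3 clones were above their untreated level at 4 h. Rapgef3, which encodes the cyclic AMP sensor EPAC1, had 2 h ratios of 1.87, 0.419 and 1.00 in clones a, b and c. Atg9b, an autophagy gene, had 2 h ratios of 1.41, 0.605 and 0.922, and its exons overlap those of Nos3, an early gene with a ratio of 11.2, so the counts of the pair cannot be separated without the strand setting.

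**Figure D4:**
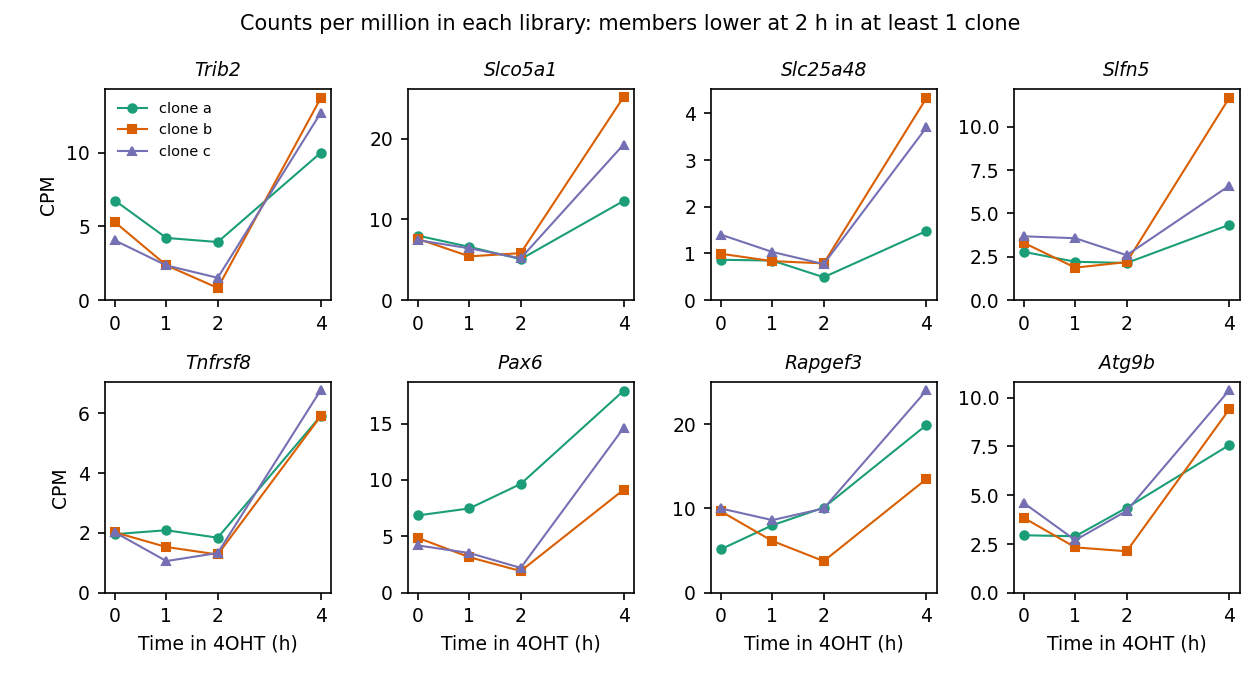
CPM in each of the 12 libraries (vertical axis from 0, its own scale in each panel) against hours in 4OHT, with 1 line per clone, for the 5 members with the lowest 2 h over untreated ratio and 3 members in which clones moved in opposite directions at 2 h. Trib2 stands at 3.94, 0.818 and 1.51 CPM at 2 h (clones a, b, c) and at 10, 13.7 and 12.7 CPM at 4 h.

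At 1 h the members were at the level of the bulk of genes. Their median log2 ratio to untreated cells was −0.11 on CPM and −0.02 on TMM scaling, against 0.22 and 0.30 in the early set and −0.10 and −0.01 over all genes tested. The rule did not use the 1 h libraries, but it did use the untreated ones they are set against. No member passed edgeR's quasi-likelihood test at 1 h with adjustment over all genes (0 of 140), beside 11 genes in all, which is 0.0775% of those tested. At an unadjusted p under 0.05 the edgeR count was 4 members (2.86%), against 11.5% of all genes. With clone as a block, edgeR called 992 genes at 1 h (6.99%) and again 0 members, with 8 members (5.71%) at an unadjusted p under 0.05, against 24.0% of all genes. DESeq2 called 0 of the 136 members it tested, beside 131 genes in all (1.12%). The member nearest to a call with the block was Taco1, with an adjusted p of 0.0509 in edgeR.

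Between clones, the size of the rise differed. At 4 h all 140 members were above their own clone's untreated level in all 3 clones, where 23.6% of all genes tested were. The 4 h libraries stood above the untreated ones with no overlap in 135 members, where 17.0% of all genes did so, and above the 2 h libraries in 120, where 12.7% did so. The rule used both contrasts, so nothing is read from any of these counts. The 5 members with overlap were Fam20a, Plek2, Rin3, Anxa1 and Pak6. Anxa1 shows the pattern, with 13.0, 64.7 and 21.6 CPM at 4 h in clones a, b and c, against 10, 17.0 and 9.68 CPM untreated, and the groups overlapped. A ratio of at least 2 was reached by 65 of the 140 members in clone a, 132 in clone b, 126 in clone c and 56 in all 3 clones. Of all genes at the same level limit, 4.01%, 6.39%, 4.79% and 3.06% did so, in that order. The rule used this contrast too.

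The members' median ratio at 4 h was 1.95 in clone a, 3.20 in clone b and 2.55 in clone c, and the early set's was 2.60, 4.88 and 3.65. Clone b had the largest ratio in 98 members (70.0%) and clone a the smallest in 110 (78.6%). The order b over c over a was seen in 88 members (62.9%), 69.9% of the early set and 20.1% of all genes tested. Counts assigned to Esr1, to which reads of the fusion's receptor domain may map, followed the same order, with 18.9, 244 and 37.8 CPM at 4 h (clones a, b, c) and 10.1, 96.9 and 41.3 CPM untreated. The part of these levels in the members' ratios was not tested.

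The widest gap between clones was in Tmcc3, whose ratios were 2.74, 12.5 and 4.15 in clones a, b and c, followed by Ociad2 (1.52, 5.75 and 2.34) and Sema6d (1.53, 5.79 and 3). Il1rl2 and Abca14 came next, with a highest over lowest quotient of 3.55 and 3.54. The evenest were Trim16, whose ratios were 2.62, 2.68 and 2.76 in clones a, b and c, then Nrgn, a calmodulin-binding synaptic protein gene (3.09, 3.18 and 2.90), Atg9b, Liph and Tnfrsf8. Level was also compared between clones, with time in the fit. An F test of clone beside time (edgeR) called 59 of 140 members (42.1%), against 36.0% of all genes and 261 of 362 early genes (72.1%). Without the 4 h libraries it called 62 members (44.3%), against 58.4% of the early set and 27.8% of all genes. Without the 2 h libraries it called 20 members (14.3%), against 31.2% of the early set and 11.7% of all genes. Eps8, an actin-capping and signalling protein gene, had the smallest adjusted p of the clone test in edgeR (2.78e-05). In clones a, b and c, Eps8 had 35.2, 58.9 and 30.5 CPM untreated, 32.4, 62.1 and 34.0 CPM at 1 h, 40.6, 77.1 and 42.1 CPM at 2 h and 59.2, 129 and 79.6 CPM at 4 h. Clone b was the highest at all 4 times. Pak6 (3.15, 9.62 and 3.20 CPM untreated in clones a, b and c) and Itpka (20.7, 29.0 and 33.8 CPM) came next, with adjusted p of 3.22e-05 and 6.36e-05 in edgeR.

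Each clone in turn was held back, the members were chosen again on the other 2, and the held-back clone was read. With clone a held back, 160 genes were chosen, of which 159 were higher at 4 h than untreated in clone a (99.4%, against 45.3% of genes at the same level limit) and 62 reached a ratio of 2 (38.8%, against 4.07%). All 113 and all 153 genes chosen without clones b and c were higher at 4 h in the held-back clone, against 39.7% and 37.4% of genes. With clone b held back, 99 of 113 reached the ratio in clone b (87.6%, against 6.03%), and with clone c held back 118 of 153 did so in clone c (77.1%, against 4.66%). Both limits, at 2 h and 4 h, were met in the held-back clone by 44 (27.5%, against 1.25%), 61 (54.0%, against 1.73%) and 91 (59.5%, against 1.31%) for clones a, b and c. These lists shared 114, 89 and 122 genes with the members.

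Near the limits the choice was narrow. At the 4 h limit Apobr and Sema7a (2.001) and Aff3 (2.006) were just inside, and Hs3st4 (1.992), Senp7 (1.99) and Arhgap18 (1.989) just outside. At the 2 h limit Anxa7 and Rbmxl2 (1.395) and Itpka (1.392) were inside, and Phldb1 (1.4), Pxn and Nt5e (1.401) outside. At the level limit Il1r1, Prss50 and Serpinb9 were inside with 3.038, 3.052 and 3.075 CPM, and Dync1i1, Grm6 and Chst2 outside with 2.791, 2.757 and 2.753 CPM.

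Gene length was a property that the rule did not use. Of the 139 members with an annotated gene, all protein coding, the median span from first to last base was 36.5 kb, with quartiles of 14.0 and 122 kb. The early set had a median of 17.3 kb (7.24 to 49.7) and all genes tested one of 25.4 kb (10.7 to 62.2). A span over 100 kb was found in 44 members (31.7%), 14.4% of the early set and 15.4% of all genes, and a span under 10 kb in 28 members (20.1%), 33.0% of the early set and 23.4% of all genes. The longest were Sema6d with 578 kb, Psd3 with 523 kb and Zmat4 with 521 kb, and the shortest Rbmxl2 with 1.47 kb. Exonic length had medians of 5.36 kb in members, 4.03 kb in the early set and 4.38 kb over all genes. Within the members, span and 4 h ratio had a Spearman correlation of 0.03 over 139 genes. Genes are not independent replicates, so the spans carry no test. In the 27 members that met both ratio limits in every clone the median span was 21.2 kb.

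**Figure D5:**
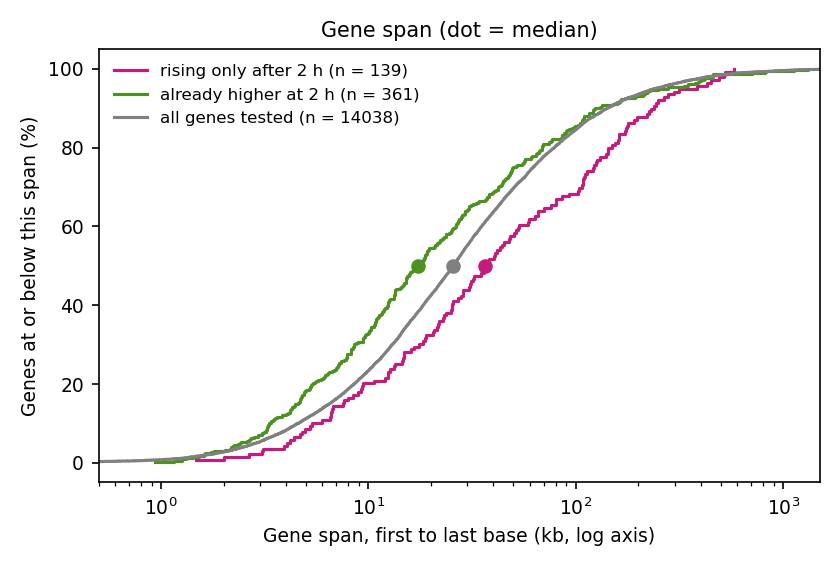
Cumulative share of genes (percent) by span from first to last base (kb, log axis) for members, the early set and all genes tested, with a dot at each median. The curve of the members lies to the right of the others over most of its range, with medians of 36.5, 17.3 and 25.4 kb.

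Several members lie next to each other or next to early genes. Il1r1 (chr1:40225080-40317257) and Il1rl2 are 7.35 kb apart. Vsig2 and Nrgn on chromosome 9 are 0.287 kb apart, with the early gene Esam 0.936 kb from Vsig2. Fmnl1 and Map3k14 are 20.9 kb apart on chromosome 11, and Tmcc3 and Plxnc1, both among the largest rises, are 200 kb apart on chromosome 10. Within 50 kb of a member lay the early genes Reep3 by Jmjd1c, Gngt2 by Abi3, Serpinb9b by Serpinb9, Ankrd63 and Inafm2 by Pak6, Nos3 by Atg9b, Col6a5 by Col6a4, Gem by Cdh17, Fjx1 by Trim44, Gpr142 by Gprc5c and Ppp1r9b by Itga3. Gngt2 shares exonic bases with Abi3 and averaged 18.7 CPM at 4 h, where Abi3 averaged 3.98 CPM. Without the strand setting the counts of Abi3 and Gngt2 cannot be separated. Serpinb9 had 2.31, 3.05 and 3.86 CPM at 4 h in clones a, b and c, while its neighbour Serpinb9b averaged 151 CPM at 4 h and 17.4 CPM untreated.

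Likeness to the members' median profile was measured by Pearson's r over the 12 libraries, as a description, since the libraries share clones and times. Among members r had a median of 0.93, with 89 over 0.9 and the lowest, 0.59, in Rhox5. Of 11715 other genes, the most alike were Aldh1a3 (0.992) and Cyp26a1 (0.987), enzymes that make and break down retinoic acid, which the rule names as left out. Dgka (0.983), a diacylglycerol kinase, E2f6 (0.982) and Slc35f1 (0.981) followed. Aldh1a3 averaged 12.6 CPM at 4 h and 0.588 CPM untreated. The 2 h ratio was 1.58 in Aldh1a3 and 2.14 in Slc35f1, both above the 1.4 limit, so Aldh1a3 failed it apart from being named. In Cyp26a1, Dgka and E2f6 it was 1.06, 1.08 and 1.07. The 4 h ratios of Dgka (1.4) and E2f6 (1.66) were below the limit of 2. Likeness to the profile therefore does not separate genes that meet the rule from those that do not.

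Lists of pathway genes taken from textbook knowledge held 4 members among their 200 tested genes (2.00%), beside 140 of all 14185 (0.987%). At 4 h edgeR called 2551 of the 14185 genes higher (18.0%) and 2140 lower (15.1%), with a median log2 change of −0.02, and 138 of the members were among the higher ones, as the rule used that contrast. Of 21 immediate-early genes 15 rose, with a median of 2.08 and no member among them, and of 16 ERK feedback genes all 16 rose, with a median of 1.65 and no member. At 2 h edgeR had already called 17 and 13 of these higher, beside 9.56% of all genes tested, and 12 and 9 were in the early set. The 2 h limit keeps early genes out of the members, so nothing is read from the absence of members here. Dusp6, an ERK phosphatase, rose by 2.65 ± 0.17 (log2, SE; edgeR adjusted p 1.72e-05). Of 20 later AP-1 target genes 11 rose and 1 fell, and Anxa1 was the member. S100a10 rose by 1.71 ± 0.25 and Plaur, the urokinase receptor, by 3.75 ± 0.56 (log2, SE; edgeR adjusted p 0.000745 and 0.000779). Among 23 adhesion and junction genes 7 rose and 1 fell, with the members Cdh2 and Itga3 in the count.

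Matrix genes had 4 rises and 1 fall of 17, and actin and contractility genes had 5 rises of 18, with no member in either list. Formative epiblast genes had 7 rises of 13, primitive streak and mesoderm genes 4 of 10, and trophoblast genes 3 rises and 1 fall of 11. Naive pluripotency genes had 3 rises and 7 falls of 15, with Nanog at 278 ± 49.6 CPM at 4 h and 739 ± 34.0 CPM untreated (SD, n = 3 each). Retinoid response genes had 3 rises and 2 falls of 11, with the member Meis1 in the count, oestrogen response genes 3 and 3 of 12, and interferon and inflammation genes 1 and 1 of 8. Of 14 primitive endoderm genes edgeR called 0 at 4 h, with 1 at an unadjusted p under 0.05 and 0 by DESeq2. All list counts come from fits without the clone block, with which edgeR called 7374 genes at 4 h, against 4691 without it. The lists were not counted with the block, so a lack of calls is not read as no change.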

How the data were processed

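The members, the gene lists and the tests were chosen with earlier results of these data known. What the authors deposited is a single table of unnormalized counts, with symbols as rows and the 12 libraries as columns. The submitters' processing notes name STAR, featureCounts, DESeq and the mm10 build, and in the sources used here their versions, the annotation and the strand setting are not given. Total RNA was depleted of ribosomal RNA, per the labels' protocols. Without the strand setting, overlapping genes cannot be told apart.

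Counts were divided by column totals to give CPM, and 0.5 CPM was added before ratios, which understates the change of low genes. Tests used edgeR 4.0.16 (limma 3.58.1, R 4.3.3) with filterByExpr (minimum count 10, total 15), TMM, 1 term per time over all 12 libraries, a 2-sided quasi-likelihood test and Benjamini-Hochberg adjustment over 14185 genes at 0.05. The 8 residual degrees of freedom gave a biological coefficient of variation of 0.163. Clone differences were tested by an F test on clone beside time. DESeq2 1.42.0 was an alternative. Other alternatives were RLE size factors, no filter, the clone block, each library left out, and changes to the rule. The scripts were tested on simulated data.

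The clone letter pairs libraries across times: all 18 same-clone pairs of deviations had a positive correlation (r 0.184 to 0.684), and pairs of different clones a negative one (−0.568 to −0.024). With clone added as a block, 6 degrees of freedom were left and the biological coefficient of variation was 0.0924. No pair of replicates agreed within sampling noise (chi-square over its degrees of freedom at 18.7 to 104).

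Named members were the 12 largest 4 h ratios, 10 highest 4 h levels, 8 lowest 2 h ratios, 5 widest and 5 evenest across clones, 3 on each side of every limit, and up to 4 per role group by 4 h level. Other members were named to list a role group in full. Listed genes were up to 4 per list by smallest p. The role groups were made after the members were known. The 14 lists come from textbook knowledge. Gene positions are GENCODE M21 (GRCm38), counted from 1, in which 25532 of 25897 symbols matched 1 gene. Promoter sequences are RefSeq's (GRCm38.p6).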

Additional observations from a re-analysis of the deposited data

Results flagged for a closer look

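In 3 members clones a and b moved in opposite directions at 2 h, each by at least 1.5-fold from its untreated library on TMM scaling. The difference between the clones was not tested, since a clone has 1 library per time. For Rapgef3 the 2 h over untreated ratio was 2.03 in clone a, 0.452 in clone b and 1.08 in clone c, a quotient of 4.50 between clones a and b. For Pax6 it was 1.5 in clone a, 0.484 in clone b and 0.618 in clone c, a quotient of 3.10. For Atg9b, whose exons overlap those of Nos3, it was 1.52 in clone a, 0.648 in clone b and 0.990 in clone c, a quotient of 2.35.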

How the results depend on the processing

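The 0 members called at 1 h stayed 0 under all 10 alternatives run. Several of these called few genes or 0 in all, as without untreated clone a, and could hardly return a member. With clone as a replicate block, the pairing raised the genes called to 992 at 1 h, 5754 at 2 h and 7374 at 4 h, from 11, 2298 and 4691 without it, and DESeq2 called 131 at 1 h. Leaving out 1 library in turn gave 0 to 13 genes at 1 h, 338 to 3152 at 2 h and 3043 to 5559 at 4 h. Counts moved by more than 1.5 times at 1 h without untreated clone a, b or c or 1 h clone b or c, at 2 h without untreated clone a, b or c or 2 h clone b or c, and at 4 h without 4 h clone b or c. Between clones, 5107 genes and 59 members differed. That became 2950 genes without the 1 h libraries, 1643 genes and 20 members without the 2 h libraries, and 3351 to 6628 genes and 41 to 69 members without 1 library, the gene count moving by more than 1.5 times without 2 h clone a or b. The cause was not tested.

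The rule gave 140 members and 27 where every clone had to meet both ratio limits. Without 1 clone it gave 113 to 160, with TMM CPM 158 (111 of them members), with 2 CPM added 127, with medians 143 and with no symbol dropped 157. Median span, by alternatives chosen after seeing the data, was 37.2 kb with RefSeq bounds (17.3 kb in the early set), 42.4 kb for the TMM members, 36.1 kb without exon overlaps (16.1 kb in the early set) and 21.2 kb for the 27. Depth limits the low members, since 1 count was worth 0.0318 to 0.0413 CPM.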
